A study of Mus musculus with 12 samples.

Results

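Aquaporins are pore proteins that let water cross cell membranes. Some of them also pass glycerol, ammonia or hydrogen peroxide. In the heart they are known from capillary endothelium, red cells and cardiomyocytes, where they serve water exchange between blood, interstitium and muscle cells and, for the glycerol-passing forms, the entry of a fuel. The 5 aquaporin genes Aqp1, Aqp4, Aqp7, Aqp8 and Aqp11 were taken by name from a table of 78334 genes, of which 16981 had enough counts to be tested. All 5 members were among those tested, and the table holds 12 aquaporin genes in all. The set is labelled after Aqp8, which was chosen by its CPM difference between UNX/DOCA vehicle and Sham vehicle in an earlier look at the same libraries. That contrast is therefore described here without a test.

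Poly(A) RNA was sequenced from left ventricle of mice, in 3 groups of 4 libraries, which the labels call biological replicates. Sham vehicle mice had a sham operation and ate normal chow. In the UNX/DOCA vehicle group, which models diastolic dysfunction, a kidney was removed, the mineralocorticoid deoxycorticosterone acetate was given and the chow was normal. The UNX/DOCA ITF2357 group (called the ITF2357 group here) underwent the same operation, and its chow held the histone deacetylase inhibitor ITF2357, also named givinostat, for 4 weeks beginning 4 weeks after surgery. No Sham mice received the drug, so drug and surgery cannot be separated in the contrast with Sham vehicle. The sources used here do not give strain, sex, age or drug dose.

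Total counts ran from 23.4 M to 34.9 M per library. Levels are given as CPM, a gene's count scaled to its library's total with TMM factors, and 1 CPM is about 28 reads at the mean depth. The 7 cardiomyocyte markers, Myh6 and Tnnt2 among them, summed to between 48800 and 62870 CPM in every library, as the tissue label says. Fast skeletal muscle myosins Myh1, Myh2 and Myh4 had 0 to 9 reads per gene and group. UNX/DOCA vehicle replicates 3 and 4 stood apart in immune genes: the 6 neutrophil markers summed to 474 and 151 CPM in them, against 3.78 to 42.1 CPM in the 6 other vehicle libraries and 4.59 to 26.5 CPM in UNX/DOCA ITF2357. Macrophage markers summed to 406 and 283 CPM in the same 2 libraries, against 139 to 248.9 CPM in the other 10. Erythroid markers summed to 427 to 538 CPM under Sham vehicle, 162 to 364 CPM under UNX/DOCA vehicle and 238 to 580 CPM under ITF2357. Of 54 tested genes in marker lists of 12 cell types, edgeR called 0 in each contrast of the groups. At an unadjusted p under 0.05 there were 18 (33.3%, beside 15.9% of all tested genes) for UNX/DOCA vehicle against Sham vehicle. There were 11 (20.4%, beside 18.5%) for ITF2357 against UNX/DOCA vehicle and 13 (24.1%, beside 20.1%) for ITF2357 against Sham vehicle. In the same order DESeq2 called 5, 5 and 5 of the 54 markers and limma-voom 4, 0 and 7. Of all 16981 tested genes, DESeq2 called 593, 928 and 1180 and limma-voom 521, 251 and 1506. The part of other cell types in the members' values was not tested. Members' values that moved without UNX/DOCA vehicle replicates 3 and 4 are given both ways.

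The members differed widely in level. Per kilobase of annotated exon, Aqp1 averaged 199 CPM per kb over the 12 libraries (range 110 to 265), Aqp7 5.46 (3.32 to 9.67), Aqp8 4.21 (1.11 to 7.69), Aqp4 0.295 (0.0733 to 0.533) and Aqp11 0.185 (0.0646 to 0.264). Aqp1 lay above 99.0% of 15957 tested genes with a known length, Aqp7 above 68.3%, Aqp8 above 62.1%, Aqp4 above 12.3% and Aqp11 above 7.31%. Aqp1 made up 89.8% to 96.7% of the summed per-length level of the 5 genes in every library, so the heart's aquaporin transcripts were mostly those of the endothelial and red cell water channel. Lengths are the union of all annotated exons, which runs from 1581 bases for Aqp8 to 9418 for Aqp11, and a gene that uses only some of them is understated.

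**Figure D1:**
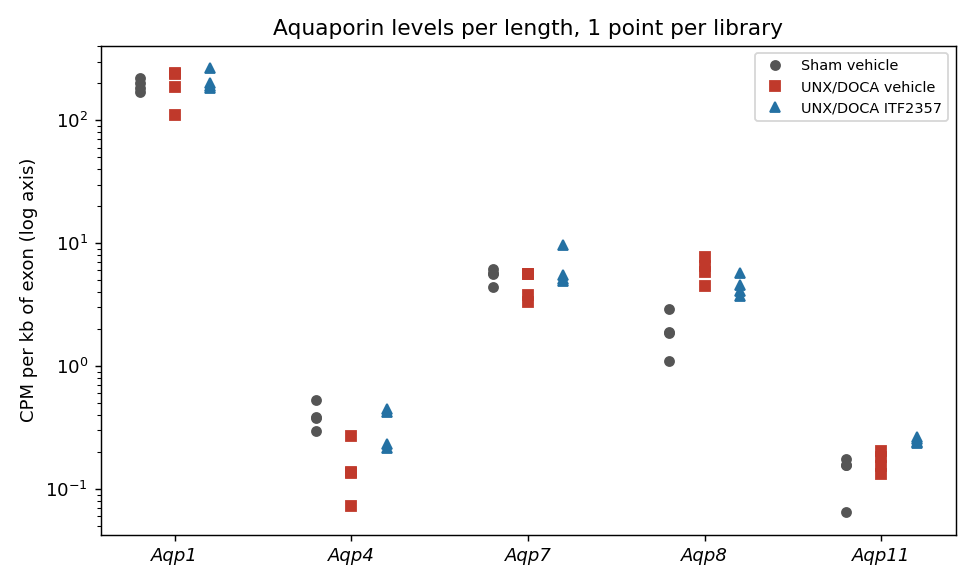
Level of each aquaporin gene per kilobase of exon (vertical log axis, CPM per kb), with 1 point per library and 1 symbol per group. Aqp1 lies above all others in every library, Aqp7 and Aqp8 form a middle tier and Aqp4 and Aqp11 a low one.

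Neighbours in this order changed places with the group. Per kilobase, Aqp8 was above Aqp7 in 4 of 4 UNX/DOCA vehicle libraries, in 0 of 4 Sham vehicle libraries and in 0 of 4 UNX/DOCA ITF2357 libraries. Aqp4 was above Aqp11 in 4 of 4 Sham vehicle, 1 of 4 UNX/DOCA vehicle and 2 of 4 UNX/DOCA ITF2357 libraries. These orders are descriptions of the libraries, depend on the annotated lengths and were not tested. Aqp8 was singled out beforehand, so its place above Aqp7 in UNX/DOCA vehicle may follow from that choice. Between the UNX/DOCA groups edgeR called 0 of the 5 members, beside 0.901% of all tested genes.

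The bases just upstream of Aqp8 and Aqp11 are shown because these were the members whose UNX/DOCA ITF2357 libraries all lay above all Sham vehicle libraries. Both sequences are from RefSeq on build GRCm38.p6, matched by symbol, and end before the first annotated transcribed base. Capitals mark CG dinucleotides, the site of DNA methylation. The reads were aligned to another build, so these positions serve only to identify the sequences.
Aqp8 (chr7:123462044-123462290, plus strand): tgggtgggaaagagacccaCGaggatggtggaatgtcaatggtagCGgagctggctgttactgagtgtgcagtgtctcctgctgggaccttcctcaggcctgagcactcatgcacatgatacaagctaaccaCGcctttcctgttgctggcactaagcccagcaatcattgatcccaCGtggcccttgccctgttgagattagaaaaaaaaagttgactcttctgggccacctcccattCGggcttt
Aqp11 (chr7:97738290-97738497, minus strand): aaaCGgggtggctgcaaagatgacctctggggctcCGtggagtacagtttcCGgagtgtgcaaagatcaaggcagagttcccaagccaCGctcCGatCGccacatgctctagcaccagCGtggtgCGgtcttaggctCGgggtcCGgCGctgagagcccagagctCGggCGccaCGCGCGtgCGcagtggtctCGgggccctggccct

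The 2 stretches hold 5 CG dinucleotides in 247 bases for Aqp8 and 18 in 208 bases for Aqp11. Over the full RefSeq windows of 300 bases (250 before the start and 50 after it), Aqp8 had 6 CG dinucleotides, Aqp11 27 and Aqp1 8, and the median of 32851 such windows was 7. Aqp7 had 0 and 3 in its 2 windows. The corticoid receptor palindrome, AGAACA and TGTTCT with 3 free bases between them, was found in 0 of the members' windows and in 0.00913% of all windows. It reads the same on both strands. Its 6-base arms, AGAACA or TGTTCT, which are each other's reverse complement and lie within the palindrome, were in 19% of all windows and among the members only in both overlapping windows of Aqp7. That Aqp8, Aqp11 and Aqp1 have no match says only that these letters are not in those windows.

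Aqp8 forms a channel for water, ammonia and hydrogen peroxide and is best known from secretory and digestive epithelia. In Sham vehicle its level was 1.75, 2.99, 4.63 and 2.96 CPM in replicates 1 to 4. The UNX/DOCA vehicle libraries stood at 10.3, 9.24, 7.15 and 12.2 CPM. Under ITF2357 they stood at 5.84, 9.02, 7.28 and 6.46 CPM. All 8 UNX/DOCA libraries thus lay above all 4 Sham vehicle libraries, and the 2 UNX/DOCA groups overlapped, with ITF2357 in the lower part of the range.

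Aqp8 averaged 3.08 ± 1.18 CPM under Sham vehicle, 9.72 ± 2.09 under UNX/DOCA vehicle and 7.15 ± 1.38 under ITF2357 (SD, n = 4 each). UNX/DOCA vehicle was 3.15-fold above Sham vehicle (log2 fold change 1.66 ± 0.25 SE), and since this difference was taken to have chosen the gene it carries no test. Of all tested genes, 5.03% lay wholly higher in the same contrast. The Aqp8 difference was 1.67 ± 0.28 SE without UNX/DOCA vehicle replicates 3 and 4, the libraries rich in neutrophil and macrophage markers. The part of the immune markers in the Aqp8 difference was not tested.

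ITF2357 against UNX/DOCA vehicle asked what the drug did to Aqp8 in operated hearts. The log2 fold change was -0.44 ± 0.24 SE and did not pass (edgeR quasi-likelihood test, adjusted p = 0.348), with 2 of 4 drug libraries below all UNX/DOCA vehicle libraries. Those UNX/DOCA vehicle libraries were also in the contrast taken to have singled Aqp8 out, so this value is not independent of that choice. Against Sham vehicle, Aqp8 remained 2.32-fold higher under ITF2357 (log2 fold change 1.22 ± 0.25 SE) and passed the edgeR test over all genes (adjusted p = 0.0374), higher in 4 of 4 libraries. This contrast with Sham vehicle shares its Sham vehicle libraries with the one taken to have singled Aqp8 out, so it is not independent support. Over single libraries left out, its adjusted p ran from 0.02 to 0.12. The call ended without Sham vehicle replicate 1, 2 or 4, UNX/DOCA vehicle replicate 2 or 4, or UNX/DOCA ITF2357 replicate 2, 3 or 4.

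**Figure D2:**
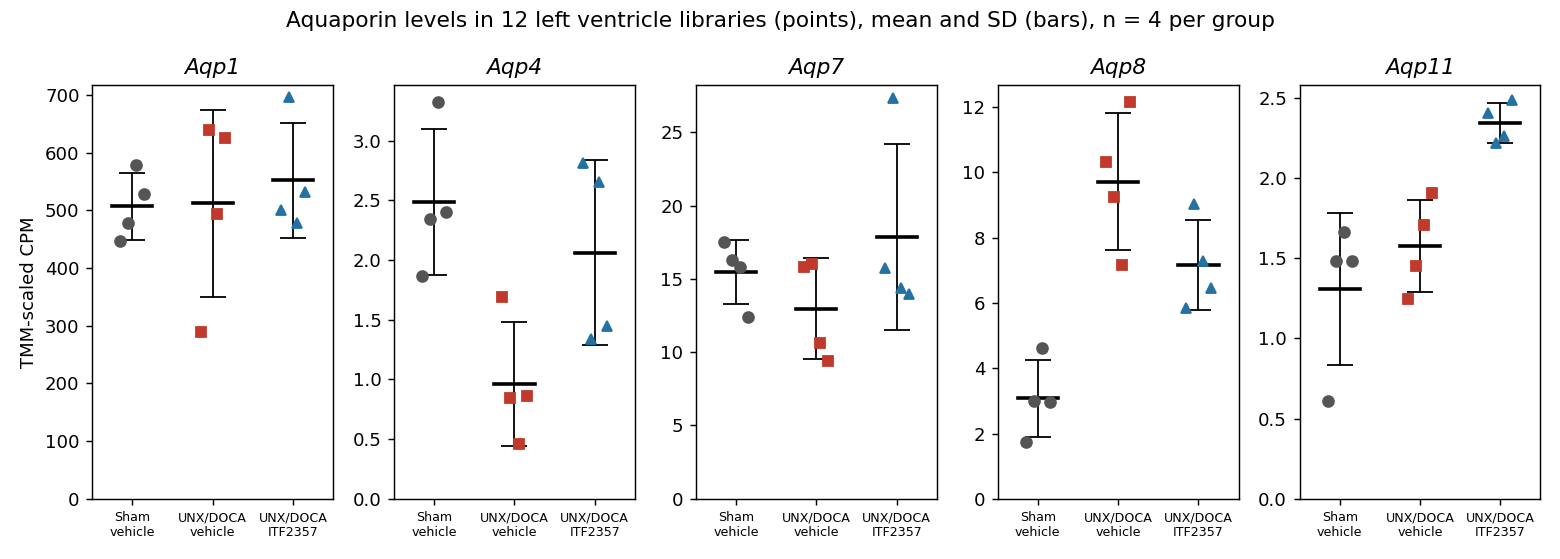
TMM-scaled CPM (vertical axes, from 0, a separate scale per gene) of the 5 aquaporins in each library (points) by group, with the group mean (thick line) and SD (error bar), n = 4. Aqp8 is above the Sham vehicle libraries in all 8 UNX/DOCA libraries, Aqp4 is lowest in UNX/DOCA vehicle, and Aqp11 is highest in UNX/DOCA ITF2357.

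Aqp4 is the water channel of astrocyte end-feet and fast skeletal muscle fibres, held at the membrane by the dystrophin complex, and is also made by mouse cardiomyocytes. It showed the opposite order to Aqp8. Sham vehicle libraries had 1.86, 2.35, 3.32 and 2.40 CPM. In UNX/DOCA vehicle the levels were 1.69, 0.840, 0.457 and 0.863 CPM, all below the lowest Sham vehicle library. In UNX/DOCA ITF2357 they were 2.81, 1.34, 2.66 and 1.45 CPM, 2 of them above every UNX/DOCA vehicle library and 2 within that group's range. The level is low: 11 to 84 reads per library, with a counting error of 19% at the mean count of UNX/DOCA vehicle, against a spread of 53.9% between its replicates (CV).

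Mean Aqp4 levels were 2.48 ± 0.610 CPM under Sham vehicle, 0.962 ± 0.518 under UNX/DOCA vehicle and 2.06 ± 0.778 under ITF2357 (SD, n = 4 each). UNX/DOCA vehicle had a log2 fold change of -1.35 ± 0.36 SE against Sham vehicle. In that contrast 4.36% of all tested genes lay wholly lower, and 9.39% had no overlap in either direction. ITF2357 against UNX/DOCA vehicle had a log2 fold change of 1.08 ± 0.36 SE, a 2.14-fold ratio of means that did not pass (edgeR adjusted p = 0.146). Against Sham vehicle the drug group stood at -0.27 ± 0.34 SE (edgeR adjusted p = 0.708).

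UNX/DOCA vehicle replicate 3, the library with the most neutrophil and macrophage marker counts, was also the lowest in Aqp4. The rest of the group did not follow that order. Replicate 2 had the lowest neutrophil sum of the 12 libraries, 3.78 CPM, with Aqp4 at 0.840 CPM. Replicate 4 had 151 CPM with Aqp4 at 0.863 CPM, and replicate 1 had 22.9 CPM with Aqp4 at 1.69 CPM. Without UNX/DOCA vehicle replicates 3 and 4, the difference of UNX/DOCA vehicle from Sham vehicle was -0.97 ± 0.40 SE and that of ITF2357 from UNX/DOCA vehicle 0.70 ± 0.40 SE (edgeR adjusted p = 0.522). The part of the immune markers in the Aqp4 difference was not tested. All 7 cardiomyocyte markers had a log2 fold change below 0 in UNX/DOCA vehicle against Sham vehicle (median -0.11). Under ITF2357, 5 of 7 were above 0 against UNX/DOCA vehicle (median 0.10). Against Sham vehicle 3 were above 0 and 4 below (median -0.15), where Aqp4 stood at -0.27. In each of the 3 contrasts edgeR called 0 of these markers. The part of cardiomyocytes in the Aqp4 values was not tested. In bulk tissue, fewer cells of a type and less RNA per cell cannot be told apart.

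**Figure D3:**
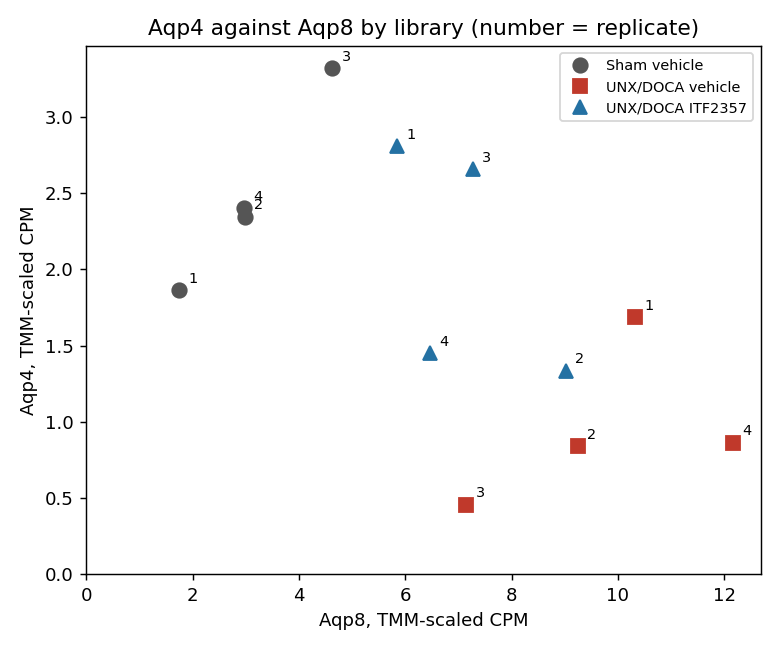
Aqp4 level (vertical axis, TMM-scaled CPM) against Aqp8 level (horizontal axis, TMM-scaled CPM) in the 12 libraries, with 1 symbol per group and the replicate number beside each point. Sham vehicle lies at low Aqp8, up to 4.63 CPM, UNX/DOCA vehicle at high Aqp8 and low Aqp4, and the ITF2357 group at 5.84 to 9.02 CPM of Aqp8, overlapping UNX/DOCA vehicle, with Aqp4 up to 2.81 CPM.

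Aqp11 is an unusual aquaporin of the endoplasmic reticulum, whose loss in mice causes cystic kidneys. Its levels were 0.608, 1.48, 1.66 and 1.48 CPM in Sham vehicle. UNX/DOCA vehicle had 1.25, 1.45, 1.70 and 1.91 CPM. UNX/DOCA ITF2357 had 2.40, 2.22, 2.26 and 2.49 CPM, so all 4 drug libraries lay above all 8 vehicle libraries. The drug group also had the tightest replicates of any member and group, with a CV of 5.31%, below the 12.2% that counting error gives at its mean count (60 to 73 reads per library), so this SD understates the error of the level.

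Aqp11 means were 1.31 ± 0.474 CPM under Sham vehicle, 1.58 ± 0.287 under UNX/DOCA vehicle and 2.34 ± 0.124 under ITF2357 (SD, n = 4 each). Against UNX/DOCA vehicle the drug group was 1.48-fold higher (log2 fold change 0.57 ± 0.25 SE) and did not pass (edgeR adjusted p = 0.248). In that contrast 9.31% of all tested genes had no overlap between groups, and 4.95% lay wholly higher. Against Sham vehicle it was 1.79-fold higher (0.83 ± 0.25 SE), which did not pass in edgeR (adjusted p = 0.0995). It did pass in DESeq2 (adjusted p = 0.0303) and limma-voom (adjusted p = 0.0444). Without Sham vehicle replicate 1 the value was 0.59 ± 0.18 SE (edgeR adjusted p = 0.167). DESeq2 and limma-voom were not run without that library. Between ITF2357 and Sham vehicle, with all libraries, DESeq2 called 1180 and limma-voom 1506 of 16981 tested genes, beside 298 in edgeR. UNX/DOCA vehicle differed from Sham vehicle by 0.27 ± 0.26 SE, by 0.02 without Sham vehicle replicate 1, the lowest library at 16 reads, and by 0.04 without UNX/DOCA vehicle replicates 3 and 4. Without those 2 replicates ITF2357 stood 0.78 ± 0.32 SE above UNX/DOCA vehicle (edgeR adjusted p = 0.381).

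Aqp7 passes glycerol as well as water. It lets glycerol out of adipocytes and is found in capillary endothelium, where it can bring glycerol to muscle. Sham vehicle libraries had 17.5, 16.3, 15.8 and 12.4 CPM. UNX/DOCA vehicle had 15.8 and 16.03 CPM in replicates 1 and 2, and 10.6 and 9.39 CPM in replicates 3 and 4. UNX/DOCA ITF2357 had 15.7, 27.3, 14.4 and 14.0 CPM. All 3 groups overlapped, and 1 drug library stood far above the rest.

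Aqp7 means were 15.5 ± 2.18 CPM under Sham vehicle, 13.0 ± 3.45 under UNX/DOCA vehicle and 17.85 ± 6.36 under ITF2357 (SD, n = 4 each). The log2 fold change was -0.26 ± 0.23 SE for UNX/DOCA vehicle against Sham vehicle and 0.04 without UNX/DOCA vehicle replicates 3 and 4, the 2 lowest libraries and those rich in immune markers. For ITF2357 against UNX/DOCA vehicle it was 0.46 ± 0.23 SE (edgeR adjusted p = 0.311), 0.16 without the same replicates and 0.18 without UNX/DOCA ITF2357 replicate 2. Against Sham vehicle it was 0.21 ± 0.23 SE (edgeR adjusted p = 0.663) and turned to -0.08 without UNX/DOCA ITF2357 replicate 2. That replicate also had the highest summed level of 8 endothelial markers, 1227 CPM against 778 to 1069 CPM in the other 11 libraries. Singly, Fabp4, Flt1 and Cldn5 were highest in it, while Pecam1, Cdh5, Kdr, Tie1 and Emcn were each higher in another library. The part of endothelial cells in its Aqp7 value was not tested. The adipocyte gene Adipoq had only 14 to 18 reads per group and Plin1 21 to 46, and the 7 adipocyte markers summed to 0.748 to 6.78 CPM.

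Aqp1, the main water channel of capillary endothelium and red cells, gave no difference that exceeded its spread. It stood at 446, 477, 578 and 528 CPM in Sham vehicle and at 289, 640, 494 and 626 CPM in UNX/DOCA vehicle. In UNX/DOCA ITF2357 it stood at 501, 697, 478 and 532 CPM. The widest spread was within UNX/DOCA vehicle, where replicate 1 was the lowest of all 12 libraries and replicate 2 the second highest.

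Group means of Aqp1 were 507 ± 57.8, 512 ± 163 and 552 ± 99.3 CPM in the same order (SD, n = 4 each). The log2 fold change was 0.01 ± 0.21 SE for UNX/DOCA vehicle against Sham vehicle. It was 0.11 ± 0.21 SE for ITF2357 against UNX/DOCA vehicle (edgeR adjusted p = 0.826) and turned to -0.09 without UNX/DOCA vehicle replicate 1. Without UNX/DOCA vehicle replicates 3 and 4 these values were -0.13 ± 0.28 SE and 0.24 ± 0.28 SE (edgeR adjusted p = 0.787 for the latter). ITF2357 against Sham vehicle gave 0.12 ± 0.21 SE (edgeR adjusted p = 0.790). Counting error was under 1% of the level in every group, at most 0.841%, far below this spread. The 8 endothelial markers summed to 994 CPM in UNX/DOCA vehicle replicate 1, within the 967 to 1069 CPM of that group. Within the group, Pecam1, Cdh5 and Fabp4 were each lowest there, and Kdr, Emcn and Cldn5 highest. The 6 erythroid markers summed to 162 CPM there, the lowest of the 12 libraries, against 325 to 364 CPM in the group's other 3. Sham vehicle replicate 1 had that group's highest erythroid sum, 538 CPM, and its lowest Aqp1. UNX/DOCA ITF2357 replicate 1 had the highest erythroid sum of the 12 libraries, 580 CPM, with Aqp1 at 501 CPM. The part of endothelial or erythroid cells in the Aqp1 values was not tested.

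Over the set, 0 of the 5 members were called by edgeR between ITF2357 and UNX/DOCA vehicle, where 0.901% of all tested genes were. Of these 5, 2 (Aqp4 and Aqp11) had an unadjusted p under 0.05, as did 18.5% of all tested genes. DESeq2 and limma-voom also called 0 of the 5, beside 928 and 251 of all 16981 tested genes. Between ITF2357 and Sham vehicle 1 member was called, Aqp8, against 1.75% of all tested genes in either direction and 0.913% called higher. Aqp8 was taken to have been singled out against the same Sham vehicle libraries, so its call is not independent of that choice. The call ended in 8 of the 12 settings with a library left out. In this contrast Aqp8 and Aqp11 had an unadjusted p under 0.05, as did 20.1% of all tested genes. Both lay wholly above Sham vehicle, as did 7.27%. Between UNX/DOCA vehicle and Sham vehicle edgeR called 0% of all genes, while 2699 genes (15.9%) had an unadjusted p under 0.05, DESeq2 called 593 and limma-voom 521. The contrasts share libraries in pairs, so the members' values in them are not independent of each other.

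**Figure D4:**
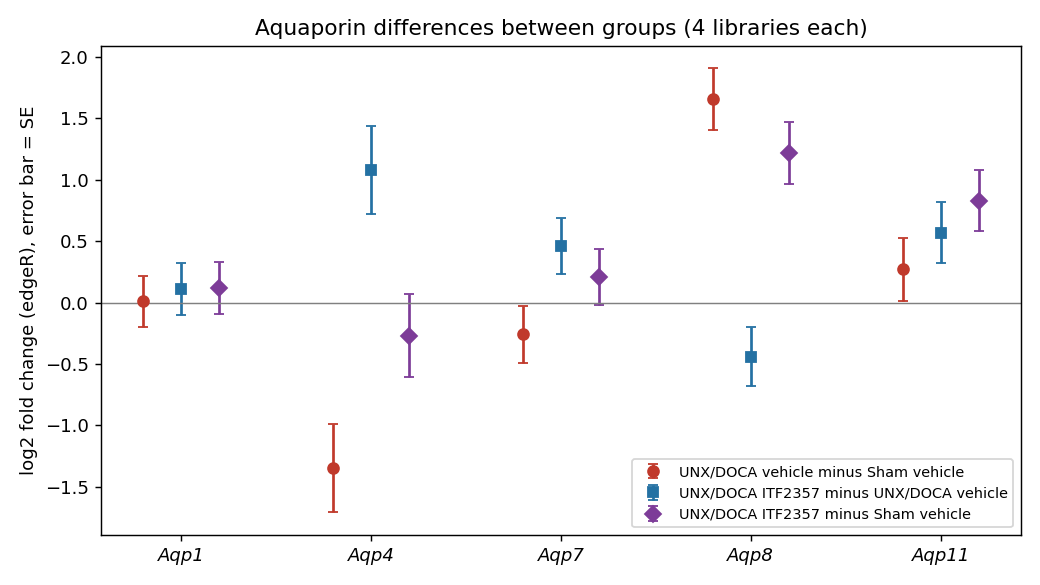
log2 fold change (vertical axis, error bar 1 SE, from the edgeR fit of all 12 libraries) of each aquaporin in the 3 contrasts between groups. Aqp8 has the highest value, 1.66 for UNX/DOCA vehicle minus Sham vehicle, and Aqp4 the lowest, -1.35 in the same contrast. Aqp1 lies within 1 SE of 0 in all 3.

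The other 7 aquaporin genes were at the limit of detection. Aqp2, Aqp3, Aqp5, Aqp6, Aqp9, Aqp12 and Mip had 0 to 5 reads per library and 82 reads in all, most of them from Aqp3 (26), Aqp6 (16) and Aqp2 (15). Aqp2, the channel that vasopressin inserts in the kidney, and Aqp3 and Aqp9, which pass glycerol in skin and liver, thus gave no level that could be compared between groups at this depth. Mip also shares annotated exon bases with an antisense gene.

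The genes whose log2 CPM ran most alike to each member over the 12 libraries were taken from 12054 genes with at least 1 CPM on average, by Pearson correlation. The libraries share group and depth, so the values are a ranking only. For Aqp8 they were Prmt6 (r = 0.94), which encodes an arginine methyltransferase, Nlrc3 (0.92), Resf1 (0.92), Ugp2 (0.90), the enzyme that makes UDP-glucose, and Dct (0.90). After the group means were subtracted their r with Aqp8 was 0.63, 0.70, 0.82, 0.83 and 0.80. Nlrc3, for one, averaged 4.95 ± 0.914, 9.97 ± 1.04 and 8.97 ± 2.94 CPM under Sham vehicle, UNX/DOCA vehicle and ITF2357 (SD, n = 4 each).

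For Aqp4 the closest were Pkia (0.97), the inhibitor of protein kinase A, Stx17 (0.94), a syntaxin of autophagosomes, and Ppm1l (0.93), a protein phosphatase, with 0.96, 0.87 and 0.97 after subtraction of the group means. Pkia averaged 202 ± 12.2, 161 ± 25.9 and 199 ± 26.1 CPM in the 3 groups in the same order (SD, n = 4 each), so the gene ran with Aqp4 over a much narrower range and at a far deeper count. Aqp7 ran closest to Klf3 (0.88), Tcf15 (0.84), a transcription factor of muscle capillaries, and Cavin2 (0.84), a coat protein of caveolae. Aqp1 ran closest to Stk35 (0.86), Prag1 (0.83) and the clock repressor Cry2 (0.83). Aqp11 ran closest to Tmco1 (0.93), a calcium channel of the endoplasmic reticulum, Zfp85 (0.92) and the ribosomal pseudogene Rps15a-ps6 (0.92), whose reads cannot be told safely from its parent's.

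Genes around the members' roles were read from 5 further lists and showed few calls. Between ITF2357 and UNX/DOCA vehicle edgeR called 0 of their 83 tested genes, with 14 at an unadjusted p under 0.05 (16.9%, beside 18.5% of all genes). DESeq2 called 3 of them and limma-voom 0, beside 928 and 251 of all 16981 tested genes. Between ITF2357 and Sham vehicle edgeR called 3, all lower (3.61%, beside 1.75% of all genes), with 16 at an unadjusted p under 0.05 (19.3%, beside 20.1%). There DESeq2 called 5 and limma-voom 6, beside 1180 and 1506 of all 16981 tested genes. Of the 14 genes of the dystrophin complex and its partners, which anchor Aqp4, 0 were called between ITF2357 and UNX/DOCA vehicle (median log2 fold change 0.06, beside 0.00 over all genes) and 1 was lower against Sham vehicle. That gene was Sgca, alpha-sarcoglycan, at 81.0 ± 6.62 CPM under ITF2357 and 107 ± 9.35 in Sham vehicle (SD, n = 4 each; log2 fold change -0.40 ± 0.08 SE, edgeR adjusted p = 0.0366). In UNX/DOCA vehicle Sgca was at 102 ± 6.84 CPM. The syntrophin genes Sntb1 (log2 fold change 0.69 ± 0.27 SE) and Sntb2 (-0.26 ± 0.13 SE) did not pass between ITF2357 and UNX/DOCA vehicle (edgeR adjusted p = 0.203 and 0.287).

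Of 20 genes of cell volume control and the osmotic response, 0 were called between ITF2357 and UNX/DOCA vehicle, with 15 below 0 and a median of -0.18. The volume-regulated anion channel subunits Lrrc8d (-0.54 ± 0.14 SE, edgeR adjusted p = 0.0866) and Lrrc8c (-0.55 ± 0.18 SE, edgeR adjusted p = 0.144) did not pass. Lrrc8d averaged 9.61 ± 0.720, 13.6 ± 2.30 and 9.40 ± 1.59 CPM under Sham vehicle, UNX/DOCA vehicle and ITF2357, and Lrrc8c 44.4 ± 8.61, 61.8 ± 15.8 and 42.3 ± 5.45 (SD, n = 4 each). Stk39, a kinase of cell volume control, had 0.27 ± 0.09 SE (edgeR adjusted p = 0.144). Against Sham vehicle 1 gene of the list was lower, the amino acid carrier Slc38a2, at 247 ± 25.1 CPM under ITF2357 and 379 ± 65.5 in Sham vehicle (edgeR adjusted p = 0.0340). It was named after its values were seen.

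Of 15 genes of glycerol and triglyceride turnover, the processes Aqp7 serves, 0 were called in either drug contrast (medians -0.02 against UNX/DOCA vehicle and 0.07 against Sham vehicle). Lipoprotein lipase Lpl averaged 4671 ± 330, 4808 ± 290 and 5653 ± 627 CPM in the 3 groups (SD, n = 4 each), with an edgeR adjusted p of 0.161 against UNX/DOCA vehicle. Dgat2, which completes triglyceride synthesis, had 0.41 ± 0.17 SE (edgeR adjusted p = 0.219), and the monoglyceride lipase Mgll -0.16 ± 0.12 SE (edgeR adjusted p = 0.518). Of 21 genes that make or remove hydrogen peroxide, which Aqp8 can pass, 0 were called against UNX/DOCA vehicle (median -0.03) and 1 was lower against Sham vehicle. That was Txnrd2, the mitochondrial thioredoxin reductase, at 26.6 ± 1.51 CPM under ITF2357 and 33.1 ± 0.681 in Sham vehicle (SD, n = 4 each; log2 fold change -0.32 ± 0.07 SE, edgeR adjusted p = 0.0402). Txnrd1 (-0.35 ± 0.14 SE) and the secreted superoxide dismutase Sod3 (-0.45 ± 0.19 SE) did not pass against UNX/DOCA vehicle (edgeR adjusted p = 0.197 and 0.239).

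Corticoid receptors and salt transport genes, the setting in which deoxycorticosterone acts, gave 0 calls in either drug contrast over 13 tested genes (medians 0.03 and 0.10). Nr3c2, the mineralocorticoid receptor gene, averaged 22 ± 4.42, 15.2 ± 3.12 and 17.7 ± 4.73 CPM under Sham vehicle, UNX/DOCA vehicle and ITF2357 (SD, n = 4 each). The epithelial sodium channel gene Scnn1a averaged 0.634, 0.766 and 0.695 CPM, and Scnn1b, Scnn1g and Hsd11b2 had too few reads to be tested. In the drug contrast Klf9 had 0.42 ± 0.20 SE, Hsd11b1 0.27 ± 0.15 SE and Per1 -0.46 ± 0.30 SE, none past the threshold (edgeR adjusted p = 0.286, 0.362 and 0.438).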

How the data were processed

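The authors deposited 1 table of raw, unnormalized counts for the 12 libraries, by Ensembl gene. Per the labels' protocols, RNA came from about 10 mg of ventricle and gave poly(A)-selected, directional libraries, with reads of 150 bp in pairs. FastQC 0.11.9, STAR 2.7.10b and the mm39 build are named in the submitters' processing notes. The sources used here do not name the counting tool, strand setting or annotation, so antisense reads cannot be told apart. Groups follow the titles, since 1 treatment label numbers the drug differently in each ITF2357 library. Replicate libraries differed 10.8 to 56.2 times more than counting error (chi-square per degree of freedom, 18 pairs). Symbols and exon lengths came from GENCODE on GRCm38 by Ensembl identifier, and at least 99.2% of each library's counts fell in named genes.

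Tests used edgeR 4.0.16 in R 4.3.3: filterByExpr (10 counts at average depth), TMM, and a robust quasi-likelihood fit of all 12 libraries with a term per group (9 residual degrees of freedom). P-values were adjusted by Benjamini-Hochberg over all 16981 genes, threshold 0.05. Log2 CPM used a prior count of 2. Standard errors are the log2 fold change over the square root of F. The fit was tested on simulated data. Members, 6 pathway lists, 12 marker lists and naming rules were chosen with earlier results of these data known. Named beside the members were up to 3 genes per list with the smallest p between the UNX/DOCA groups, some that define a list's role (Nr3c2, Scnn1a; 1 further gene is not reported here), and for each member the 3 (Aqp8: 5) genes most correlated with it. Settings varied were scaling, filter, DESeq2 1.42.0, limma-voom (limma 3.58.1), the 2 compared groups alone, a replicate block and each library left out. Leaving out UNX/DOCA vehicle replicates 3 and 4 together was added after the data were seen. Of 5 members, 4 had a RefSeq promoter entry, and Aqp4 had none. The labels call the 4 libraries of a group biological replicates. The p-values test group differences against the spread between replicates, estimated from all 12 libraries together.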

Additional observations from a re-analysis of the deposited data

Results flagged for a closer look

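Aqp7 in UNX/DOCA ITF2357 replicate 2, at 27.3 CPM, stood far above the other 3 libraries of its group (14.0 to 15.7 CPM), with a gap to the next library, as a share of the group's range, above Dixon's critical value for 4 samples. The 5 genes in 3 groups gave 15 such comparisons, and chance flags about 1 group in 20.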

How the results depend on the processing

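Aqp8 kept its direction in all 3 contrasts under all 22 settings tried. Against Sham vehicle, UNX/DOCA vehicle stood between 1.46 and 1.90 (log2) with single libraries left out, and ITF2357 against UNX/DOCA vehicle between -0.57 and -0.32. ITF2357 against Sham vehicle stood between 1.02 and 1.46, and its call ended in 8 of the 12 settings with a library left out. The titles do not say whether the replicate numbers mark pairs of animals. Correlations of same-numbered libraries over all genes ran from -0.187 to 0.246 (median 0.00), which does not settle the question for single genes. With a replicate block the Aqp8 value for ITF2357 against Sham vehicle was 1.23 (edgeR adjusted p = 0.0554).

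Members called against Sham vehicle were 1, and 2 with DESeq2 and with limma-voom, 0 with the replicate block and 0 to 1 with a library left out. Aqp1 turned between ITF2357 and UNX/DOCA vehicle with limma-voom (-0.03), and ranged from -0.09 to 0.23 with a library left out. Against Sham vehicle it ranged from -0.02 to 0.18, and Aqp7 from -0.08 to 0.30.

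Counts over all genes moved far more. For UNX/DOCA vehicle against Sham vehicle edgeR called 0. It called 7 with upper-quartile scaling, 210 with no filter, 31 with the replicate block, 1 without UNX/DOCA vehicle replicates 3 and 4, and 0 to 380 with a library left out, while DESeq2 called 593 and limma-voom 521. For ITF2357 against UNX/DOCA vehicle the 153 calls (78 higher, 75 lower) became 352 with no filter, 928 with DESeq2, 251 with limma-voom, 5 with the 2 groups alone, 68 with the replicate block, 12 without replicates 3 and 4 and 14 to 243 with a library left out. Upper-quartile scaling gave 108 higher and 65 lower. For ITF2357 against Sham vehicle the 298 calls (155 higher, 143 lower) became 1180 with DESeq2, 1506 with limma-voom, 475 with the 2 groups alone, 192 with the replicate block, 481 without replicates 3 and 4 and 17 to 616 with a library left out. The split was 214 higher and 89 lower with upper-quartile scaling and 172 and 98 with library totals. The cause was not tested. Depth limits Aqp4 and Aqp11, whose counts per library were 11 to 84 and 16 to 73.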
